A study of Mus musculus with 2 samples.

Results

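A set of 29 genes of the type I interferon response was followed through leukocytes sorted from mouse liver tumours. The set was named as 31 genes, taken by symbol from the 32285 genes of the deposited matrices. Of these, 29 were analysed, and Mx1 and Mx2 were not analysed here. The members cover RNA and DNA sensors, transcription factors, regulators and antiviral effectors. They were chosen by name, with earlier results of these data known.

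Hepatocellular carcinomas of MYC-ON mice were dissected after gavage with DMSO or STK. What STK is, the labels leave unsaid. Live cells bearing CD45, the surface antigen shared by leukocytes, were sorted and profiled with droplet single-cell RNA sequencing from the 5′ end of transcripts. Each group had 1 library, with the same genotype and batch label. Age, sex and number of the animals are not in the labels, nor is any pooling of animals or the cell type that expresses MYC. With 1 library per group no test was run. Intervals in parentheses are 95% intervals that cover counting error only, not variation between animals.

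Totals were 79322966 UMIs (unique molecular identifiers, each standing for 1 captured transcript) over 11784 barcodes for DMSO and 81859811 UMIs over 11672 barcodes for STK. After the depth, gene and mitochondrial limits, 11152 and 10846 cells remained, with medians of 4471.5 and 4930.5 UMIs. Marker gates that used no member gene placed 8229 DMSO cells (73.8%) and 8338 STK cells (76.9%) in a type. Cells meeting gates of more than 1 lineage, 608 and 876, were left out as mixed. Defining markers were present in the gated types, for example Siglech at 2439 and 2331 CPM in plasmacytoid dendritic cells and Foxp3 at 523 and 460 CPM in regulatory T cells. The libraries shared 183 cell barcodes. Despite the CD45 sort, 998 DMSO and 671 STK cells met the hepatocyte or tumour gate, with medians of 25883 and 25660 UMIs. Among gated cells that could be sexed by Xist or by Y-linked transcripts, 19.1% of DMSO and 74.2% of STK cells were female. Sexed cells were 806 female and 3403 male of 8229 in DMSO, and 3611 and 1258 of 8338 in STK. The rest had no sex call. Sex mix and treatment therefore cannot be told apart between whole libraries, and values within each sex are given below.

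Type I interferons are cytokines made when cells sense foreign or misplaced nucleic acid. They bind a receptor of the chains IFNAR1 and IFNAR2, whose kinases TYK2 and JAK1 pass the signal on by phosphorylation. STAT2 and IRF9 then act in a complex that binds the interferon-stimulated response element upstream of target genes. The products block viral replication, and several of them, such as IRF7, STAT2 and the RNA sensors, feed back on the pathway itself. In tumours the same genes are read in infiltrating myeloid and lymphoid cells.

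The promoters are shown because the members are defined by a shared response, and their sequence is independent of the counts. RefSeq promoter windows on GRCm38.p6 (250 bases before to 50 bases after a gene's start) were available for 22 of the 29 members, 27 windows in all. The core of the response element was searched on both strands as GAAA, any 2 bases, and GAAA again. It occurred in 14 of the 27 member windows (51.9%), belonging to 13 of the 22 genes, and in 1131 of all 32851 windows (3.44%). Stretches of 7 members follow, each 5′ to 3′ on the gene's strand, with every match in capitals and overlapping matches run together. The stretches are Isg15 at chr4:156200850-156200921 (minus strand), Oas1a at chr5:120907526-120907570 (minus), Bst2 at chr8:71537562-71537627 (minus), Ifi213 at chr1:173599311-173599370 (minus), Stat2 at chr10:128270251-128270310 (plus), Ifit3 at chr19:34583348-34583441 (plus) and Ifit1 at chr19:34640760-34640838 (plus).
Isg15: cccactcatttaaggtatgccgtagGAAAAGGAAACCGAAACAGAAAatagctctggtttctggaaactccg
Oas1a: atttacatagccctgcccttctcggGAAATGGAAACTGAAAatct
Bst2: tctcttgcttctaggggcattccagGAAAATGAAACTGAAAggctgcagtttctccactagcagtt
Ifi213: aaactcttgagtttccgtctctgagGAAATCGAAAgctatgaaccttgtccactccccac
Stat2: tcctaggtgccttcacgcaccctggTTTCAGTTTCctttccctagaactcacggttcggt
Ifit3: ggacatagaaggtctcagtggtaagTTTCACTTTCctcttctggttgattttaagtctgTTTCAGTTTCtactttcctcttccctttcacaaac
Ifit1: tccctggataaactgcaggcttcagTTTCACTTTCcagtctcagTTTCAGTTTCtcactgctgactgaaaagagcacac
Isg15 held 3 overlapping matches, Oas1a and Bst2 held 2 overlapping ones, and Ifit1 and Ifit3 held 2 separate ones on the opposite strand. The first match began 78 bases before the start of Isg15, 20 before Oas1a, 73 before Ifi213, 104 before Ifit1, 130 before Bst2, 156 before Ifit3 and 222 before Stat2. The stretch of Ifit3b is letter for letter that of Ifit3. Those genes are neighbouring near-copies on chromosome 19 (Ifit3 from 34583531 to 34588731, Ifit3b from 34607970 to 34613401, GRCm38), so how their UMIs were split between them is uncertain. The same holds for Oas1a, Ifi204, Ifi213, Trim30a and Ifi27l2a, whose families hold other close copies. The windows of Isg20, Ifit2, Ifi44, Oasl1, Oasl2, Irf7, Xaf1, Cmpk2 and Irf9 held no match. A match, or its lack, describes the letters of this window only.

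Across the 15 types compared, the members were highest in neutrophils (13 genes), classical monocytes (10 genes), plasmacytoid dendritic cells (5 genes) and conventional CD4 T cells (1 gene), ranked by the mean of both libraries. Levels are UMIs summed over the cells of a type per 1000000 UMIs of that type (CPM), and are compared between types within a gene. In such sums, fewer expressing cells and less RNA per cell cannot be told apart. The leukocyte type with the highest level was the same in both libraries for 25 of the 29 members.

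**Figure D1:**
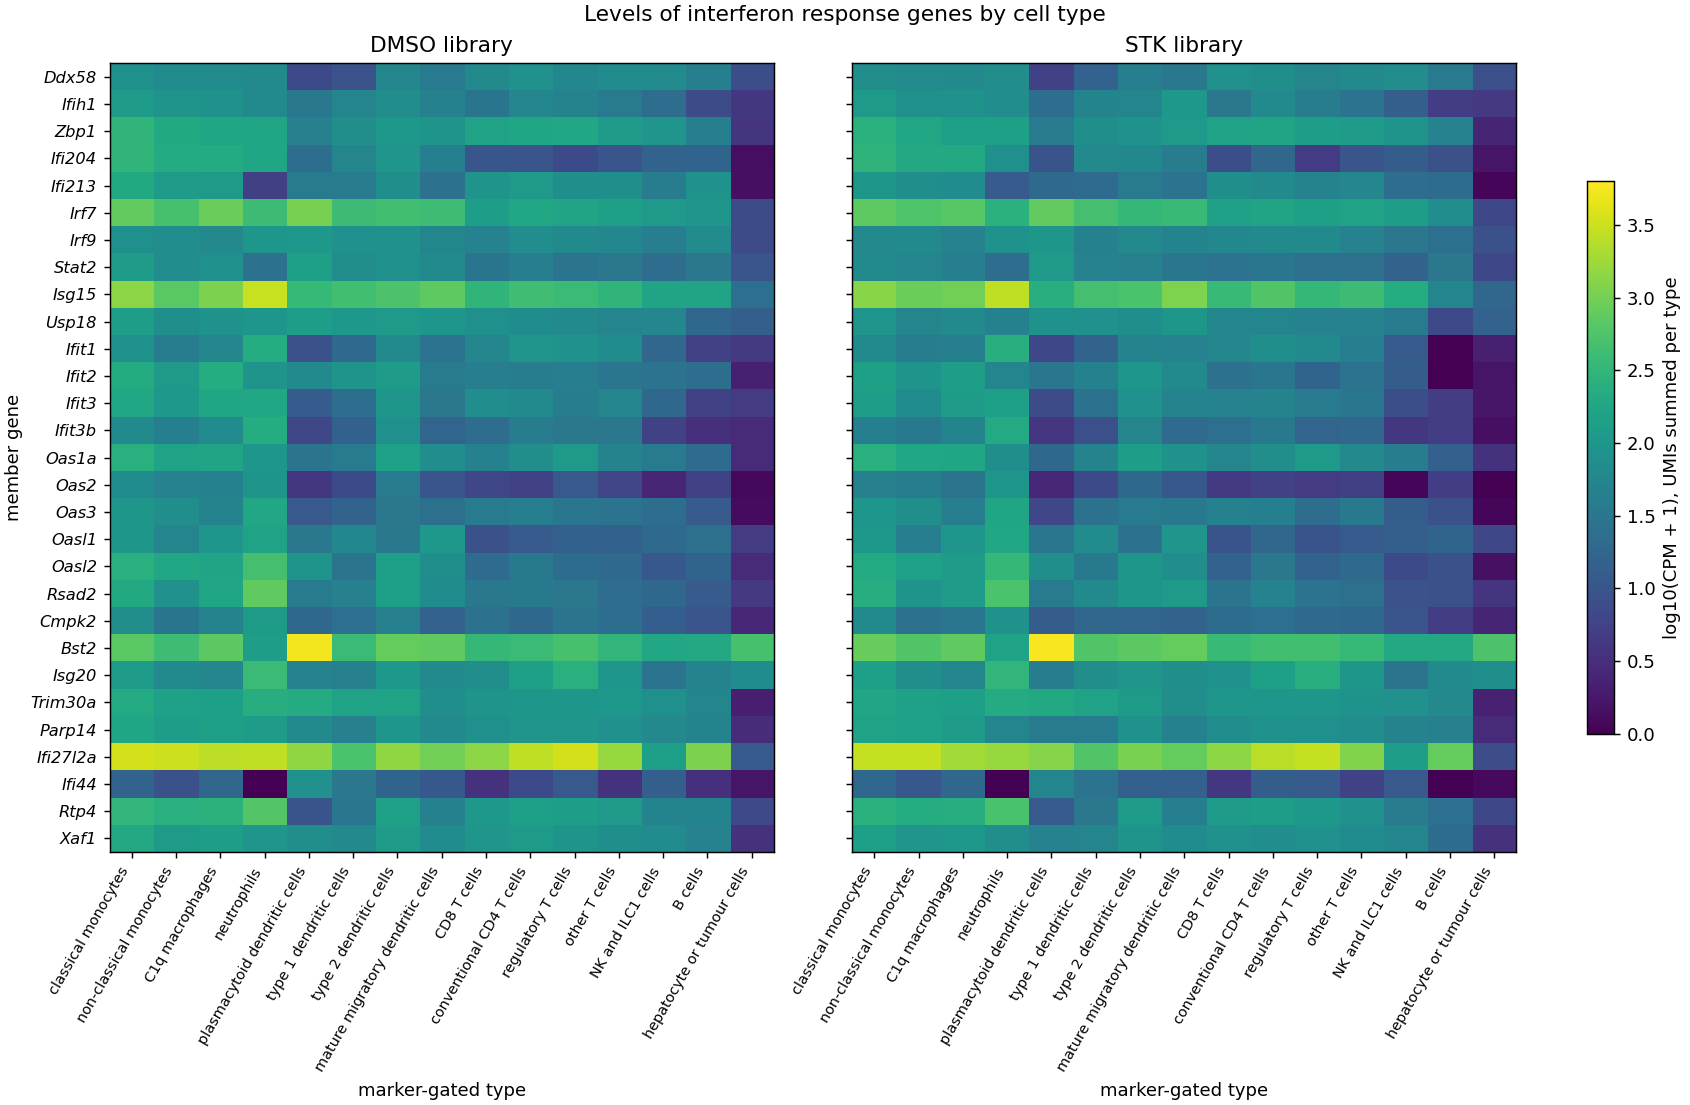
Levels of the 29 members (rows, ordered by role) in the 15 marker-gated types (columns) of the DMSO and STK libraries, as log10 of CPM plus 1 of the UMIs summed per type. The bright cells are Bst2 in plasmacytoid dendritic cells, at 5353 and 5708 CPM, and Isg15 in neutrophils, at 2986 and 2724 CPM, while the hepatocyte or tumour column is dark for nearly every gene but Bst2.

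The sensors were mostly monocyte genes. Ifih1, which encodes the long double-stranded RNA sensor MDA5, stood at 122 CPM in DMSO and 111 CPM in STK classical monocytes. Ifi204, of the DNA-binding PYHIN family, stood at 304 and 292 CPM there and at 6.14 and 3.79 CPM in regulatory T cells. Ifi213, of the same family, stood at 199 and 103 CPM in classical monocytes and was nearly absent from neutrophils, at 4.32 and 11.5 CPM. Zbp1, a sensor of Z-form nucleic acid, was highest in classical monocytes at 302 and 265 CPM and, among leukocytes, lowest in plasmacytoid dendritic cells at 43.6 and 35.7 CPM. In hepatocyte or tumour cells it stood at 2.76 and 1.49 CPM. Ddx58, which encodes the RNA sensor RIG-I, was close in conventional CD4 T cells (81.7 and 78.1 CPM) and classical monocytes (79.8 and 73.3 CPM) and lowest in plasmacytoid dendritic cells at 6.23 and 4.38 CPM.

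The transcription factors were highest in plasmacytoid dendritic cells, the leukocytes specialised in making type I interferon. Irf7, the factor that drives interferon-alpha genes, was at 1030 and 769 CPM there, followed by C1q macrophages at 867 and 658 CPM and classical monocytes at 770 and 731 CPM. Stat2 was at 145 and 110 CPM in plasmacytoid dendritic cells and at 22.2 and 15.3 CPM in natural killer (NK) and ILC1 cells. Among leukocytes Irf9, the DNA-binding partner of STAT2, ranged from 104 and 100 CPM in plasmacytoid dendritic cells to 41.7 and 30.6 CPM in NK and ILC1 cells.

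Isg15, a ubiquitin-like protein that is joined to other proteins, reached 1393 and 1324 CPM in classical monocytes, below the neutrophil level. It was at 164 and 54.4 CPM in B cells. Usp18, the protease that removes ISG15 and dampens the receptor, was similar in classical monocytes (135 and 94.7 CPM) and plasmacytoid dendritic cells (130 and 88.6 CPM).

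Most antiviral effectors were neutrophil or monocyte genes. The IFIT proteins bind foreign RNA. Neutrophils held Ifit1 at 227 and 239 CPM, Ifit3 at 190 and 140 CPM and Ifit3b at 225 and 211 CPM. Ifit2 was instead highest in classical monocytes (216 and 146 CPM) and C1q macrophages (226 and 130 CPM). The oligoadenylate synthetases make the messenger that switches on RNase L. Neutrophils led for Oas2 (92.9 and 98.8 CPM) and Oas3 (190 and 179 CPM), whereas Oas1a was highest in classical monocytes at 256 and 260 CPM. The related Oasl1 and Oasl2 were again highest in neutrophils, at 156 and 191 CPM and at 480 and 338 CPM.

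Neutrophils also led for Rsad2, which encodes viperin, at 750 and 526 CPM, and for its neighbour on chromosome 12, the nucleotide kinase gene Cmpk2, at 117 and 89.7 CPM. The exonuclease gene Isg20 stood at 393 and 313 CPM in neutrophils and was next highest in regulatory T cells at 259 and 239 CPM. Trim30a reached 233 and 216 CPM in neutrophils and 218 and 204 CPM in plasmacytoid dendritic cells. Rtp4 reached 609 and 517 CPM in neutrophils. Classical monocytes led for Xaf1 (195 and 138 CPM) and for Parp14, an ADP-ribosyltransferase (178 and 154 CPM).

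Bst2, which encodes the virion-tethering protein tetherin, marked plasmacytoid dendritic cells. The next type, mature migratory dendritic cells, held 747 and 806 CPM. In hepatocyte or tumour cells Bst2 stood at 496 and 551 CPM, followed by Isg20 at 68.4 and 77.8 CPM. Ifi44 was at 82.6 and 54.2 CPM in plasmacytoid dendritic cells and had no UMI in neutrophils of either library. Ifi27l2a gave 30.3% of all member UMIs in gated cells, Bst2 19.4% and Isg15 10.9%. Ifi27l2a stood at 3607 CPM in DMSO classical monocytes and 3623 CPM in DMSO regulatory T cells, and at 2934 and 2879 CPM in the same types of the STK library.

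A cell was called interferon-high when at least 5 different members had a UMI after each cell had been thinned to 1000 UMIs. Thinning was needed because depth differed between types. Without it, 96.5% and 93.8% of classical monocytes passed the same limit. Of classical monocytes, 52.5% (48.5 to 56.4) of 650 DMSO cells and 43.1% (38.6 to 47.8) of 466 STK cells were interferon-high. C1q macrophages followed with 42.3% (39.0 to 45.7) and 31.7% (28.6 to 35.0), and neutrophils with 40.7% (34.6 to 47.1) and 32.7% (26.2 to 39.7). NK and ILC1 cells held 5.82% and 5.01%, and B cells 3.33% (6 cells) and 0.541% (1 cell). The hepatocyte or tumour gate gave 4 of 991 DMSO cells (0.404%) and 0 of 663 STK cells (upper limit 0.555%), which gives the rate of the call in deeply sequenced cells that are not leukocytes. T cells and dendritic cells lay between, from 9.46% in STK mature migratory dendritic cells to 24.5% in DMSO type 2 dendritic cells.

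**Figure D2:**
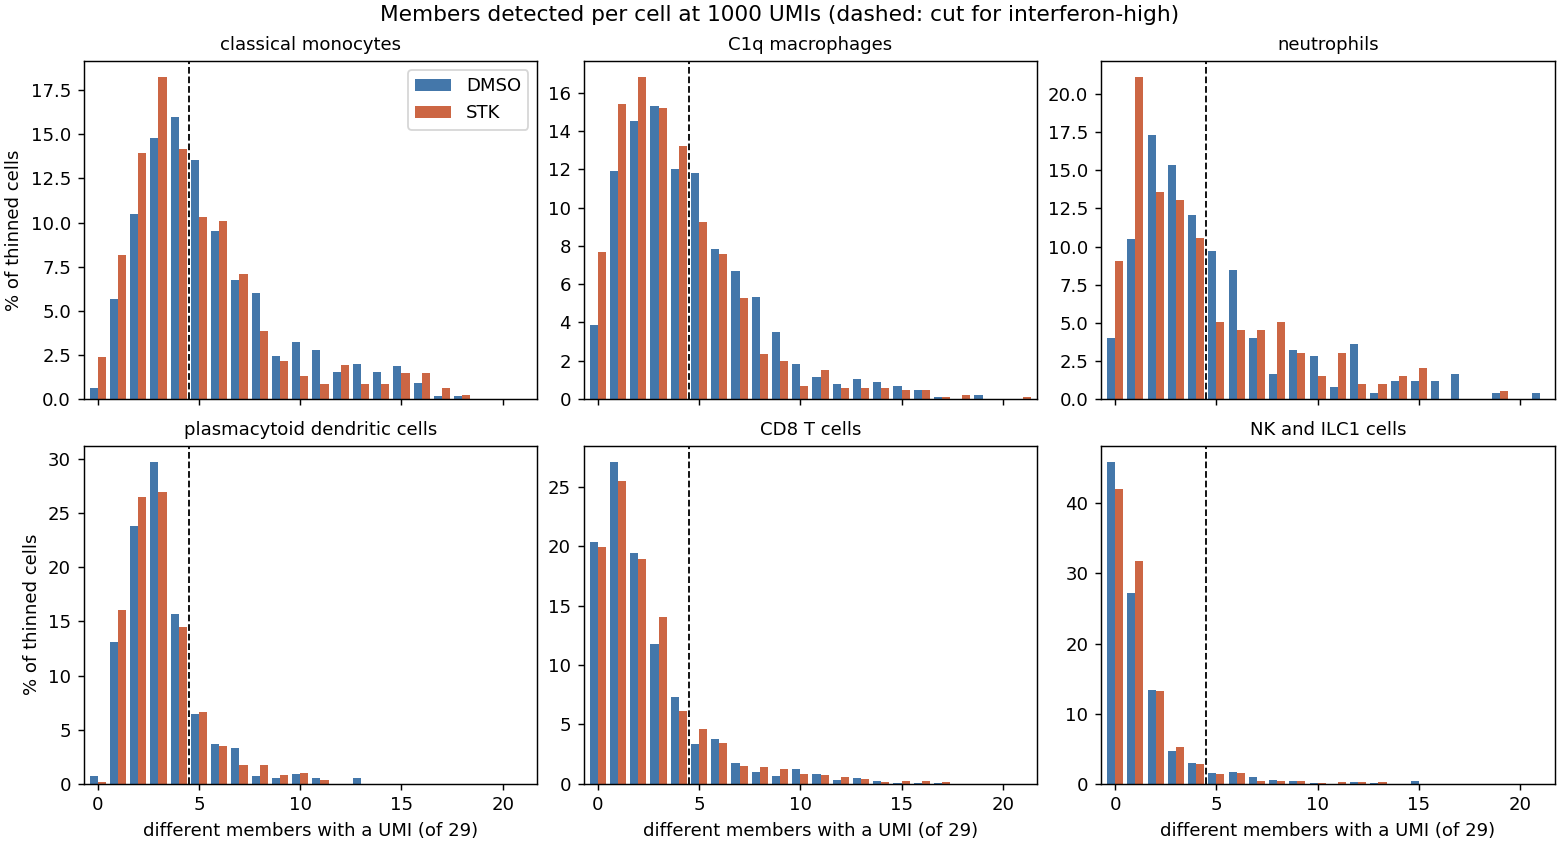
Distribution of the number of different members with a UMI per cell (x axis, of 29) in 6 types after thinning to 1000 UMIs, as a percentage of thinned cells (y axis) for DMSO and STK. The dashed line is the limit for an interferon-high cell. Distributions are continuous across it, with a tail beyond 8 members in monocytes, macrophages and neutrophils, and a peak at 0 in NK and ILC1 cells.

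The limit divides a continuous range rather than separate populations. In DMSO classical monocytes 16.0% of cells had exactly 4 members and 13.5% exactly 5, and in STK 14.2% and 10.3%. At least 8 members were found in 22.6% of DMSO and 15.7% of STK classical monocytes. Classical monocytes without any member UMI made up 0.615% and 2.36%, against 45.9% and 42.0% of NK and ILC1 cells. Myeloid cells supplied a large part of the interferon-high cells. C1q macrophages were 11.5% of DMSO gated cells but 22.7% of the interferon-high ones, and classical monocytes 7.90% and 20.7%. In the STK library the CD8 T cell part of the interferon-high cells was 19.0%, against 10.1% in DMSO, while CD8 T cells were 20.0% and 14.5% of gated cells.

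Members were found together in the same monocytes. DMSO classical monocytes with an Ifit1 UMI carried on average 10.8 other members, and those without it 5.12. For Ifit3b the means were 11.4 and 5.24, and for Rsad2 9.81 and 4.90. STK monocytes gave 11.5 and 4.57 for Ifit1, 12.3 and 4.61 for Ifit3b, and 9.90 and 4.20 for Rsad2. Ifi27l2a and Irf9 separated the cells least. Ifi27l2a had a UMI in 90.5% of DMSO classical monocytes, with 4.70 other members beside it and 4.03 without it, and the means for Irf9 were 6.07 and 5.40. Interferon-high and other classical monocytes were of similar depth, with medians of 4889 and 5024 UMIs in DMSO and 6085 and 5829 in STK.

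Genes outside the members were read in the same cells as a description, since the cells had been chosen by interferon genes. In classical monocytes 244 of 7833 such genes (3.12%) were at least 1.5 times higher in interferon-high than in other cells in both libraries. Of 44 other interferon-stimulated genes measured, 39 were, with median log2 ratios of 1.17 in DMSO and 1.40 in STK, against -0.06 and -0.10 over all genes outside the members. Of 22 genes preferring interferon-gamma, 18 were. The other interferon-stimulated genes past this fold were 37 of 45 in C1q macrophages (2.63% of all genes outside the members), 41 of 43 in CD8 T cells (4.53%), 36 of 40 in regulatory T cells (3.34%) and 31 of 39 in plasmacytoid dendritic cells (2.66%). Receptor and kinase genes were not, with 1 of 9 in each of these types. Cxcl10, a chemokine that draws CXCR3-bearing T cells, was 8.95 times higher in DMSO (1908 against 213 CPM) and 6.86 times higher in STK (1668 against 243 CPM). The next by the lower of both ratios were Socs1, an inhibitor of the receptor kinases, at 6.75 and 7.83 times, Phf11d at 6.46 and 6.09, the chemokine Cxcl9 at 5.81 and 8.00, Slfn4 at 5.68 and 7.12 and Serpina3g at 5.27 and 6.70. Phf11a, Herc6, Ccl5 and Gbp5 completed the 10 genes, with lower ratios of 5.07, 4.55, 4.32 and 3.94.

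The remaining comparison set STK against DMSO. Over all gated cells the interferon-high share was 20.5% (19.6 to 21.4) in DMSO and 16.6% (15.8 to 17.4) in STK, a ratio of 0.808 (0.757 to 0.862). With each type held at its DMSO share of cells the ratio was 0.864. The STK share was below the DMSO share in 12 of 15 types. The interval of the ratio lay below 1 in 3 of them, namely classical monocytes at 0.822 (0.724 to 0.934), C1q macrophages at 0.750 (0.662 to 0.849) and type 2 dendritic cells at 0.607 (0.376 to 0.977). In the type 2 gate the 5 classical monocyte markers together made up 0.114% of UMIs in DMSO and 0.0578% in STK, with Ly6c2 at 757 and 298 CPM and Chil3 at 31.7 and 7.09 CPM, and Ccr7 stood at 30.8 and 158 CPM. Their part in the lower share was not tested. CD8 T cells went the other way, with 14.1% and 15.5% and a ratio of 1.10 (0.917 to 1.31). Conventional CD4 T cells (18.9% and 19.0%) and other T cells (12.5% and 12.6%) were level in this single draw. The types come from the same 2 libraries, so their number is not a number of independent observations.

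Thinning draws UMIs at random, and small groups moved with the draw. Averaged over 20 thinnings, the shares were 50.9% and 42.5% in classical monocytes, 41.3% and 31.9% in C1q macrophages, 43.1% and 35.4% in neutrophils and 26.4% and 18.1% in type 2 dendritic cells. CD8 T cells averaged 14.1% and 15.6%, and other T cells 13.6% and 12.1%. Regulatory T cells, at 19.7% and 15.02% in the single draw, averaged 20.3% and 16.6%. Conventional CD4 T cells averaged 21.0% and 18.0%, plasmacytoid dendritic cells 20.1% and 16.7%, against 16.8% and 15.7% in the single draw, and mature migratory dendritic cells 12.0% and 11.9%, against 14.1% and 9.46%. Type 1 dendritic cells averaged 13.2% and 14.5%, the opposite order of the single draw (15.2% and 13.9%).

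**Figure D3:**
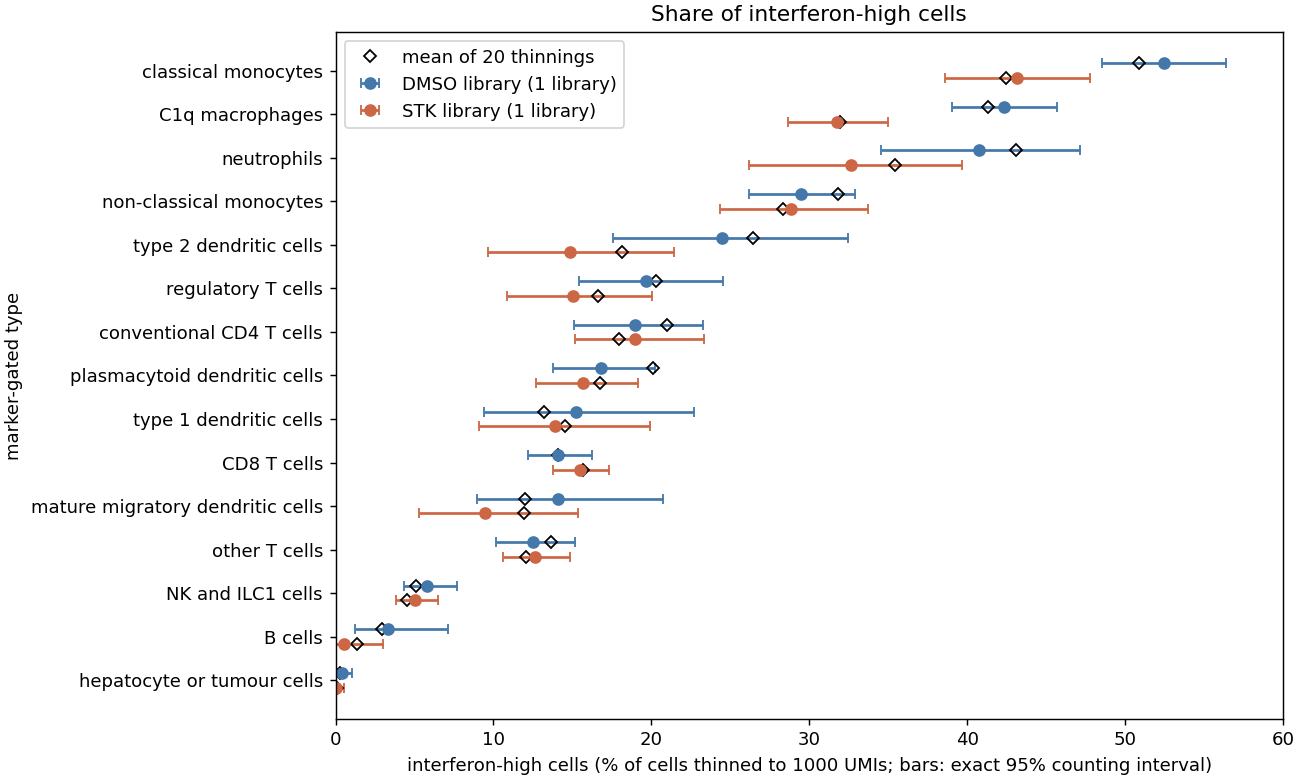
Share of interferon-high cells (x axis, percent of cells thinned to 1000 UMIs) in 15 marker-gated types (y axis) for the DMSO and the STK library, with exact 95% counting intervals from 1 thinning and open diamonds for the mean of 20 thinnings. Classical monocytes and C1q macrophages are highest in DMSO and lie lower in STK, and CD8 T cells overlap.

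The cells that met the non-classical monocyte gate (at least 2 of Ace, Treml4, Eno3 and Adgre4) did not separate cleanly from classical monocytes. Ly6c2 stood at 920 and 1305 CPM and Chil3 at 632 and 612 CPM in them, so they are described by the gate only. Their interferon-high shares were 29.5% and 28.9%, a ratio of 0.979 (0.807 to 1.19). Over 20 thinnings they averaged 31.8% and 28.4%, and a second single draw gave a ratio of 0.771.

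Member UMIs as a part of all UMIs were 0.374% in DMSO and 0.373% in STK over all gated cells. This pooled value mixes types of unequal size and depth, and sexes. Within female cells the ratio was 1.72 (1.69 to 1.75), from 0.175% to 0.300%, and within male cells 1.34 (1.33 to 1.36), from 0.344% to 0.462%. These values within a sex mix types as well. The hepatocyte or tumour gate had the deepest cells and few member UMIs (0.0683% and 0.0726%). It held 238 of 806 female cells in DMSO and 431 of 3611 in STK, and 485 of 3403 and 61 of 1258 male cells. Its part in the ratios within a sex was not tested. Within types the STK value was lower in 11 of 15, with an interval below 1 in 10 and above 1 in 4. Classical monocytes went from 1.04% to 0.916%, a ratio of 0.878 (0.865 to 0.893), C1q macrophages from 0.820% to 0.662%, 0.807 (0.797 to 0.818), and neutrophils from 1.10% to 0.866%, 0.784 (0.752 to 0.818). Regulatory T cells gave 0.817 (0.794 to 0.840). CD8 T cells gave 1.04 (1.02 to 1.06), type 1 dendritic cells 1.09 (1.05 to 1.14), mature migratory dendritic cells 1.10 (1.05 to 1.14) and hepatocyte or tumour cells 1.06 (1.04 to 1.09). These intervals treat UMIs as independent and are narrower than any spread between cells or animals.

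Single members were counted past a fold of 1.5, beside the share of all genes past the same fold in the same cells. For counts within a sex, with other gates or with doublets removed, no all-gene share was computed. Those counts are therefore not read as results about the members. Over all gated cells 0 of 29 members were past it in either direction, against 8.22% of 15713 genes lower and 7.95% higher. Within types the counts were uneven. In classical monocytes 3 of 29 members were lower and 0 higher, against 8.85% and 9.26% of all genes. The median log2 ratio of the members was -0.21 there, against 0.00 for all genes.

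**Figure D4:**
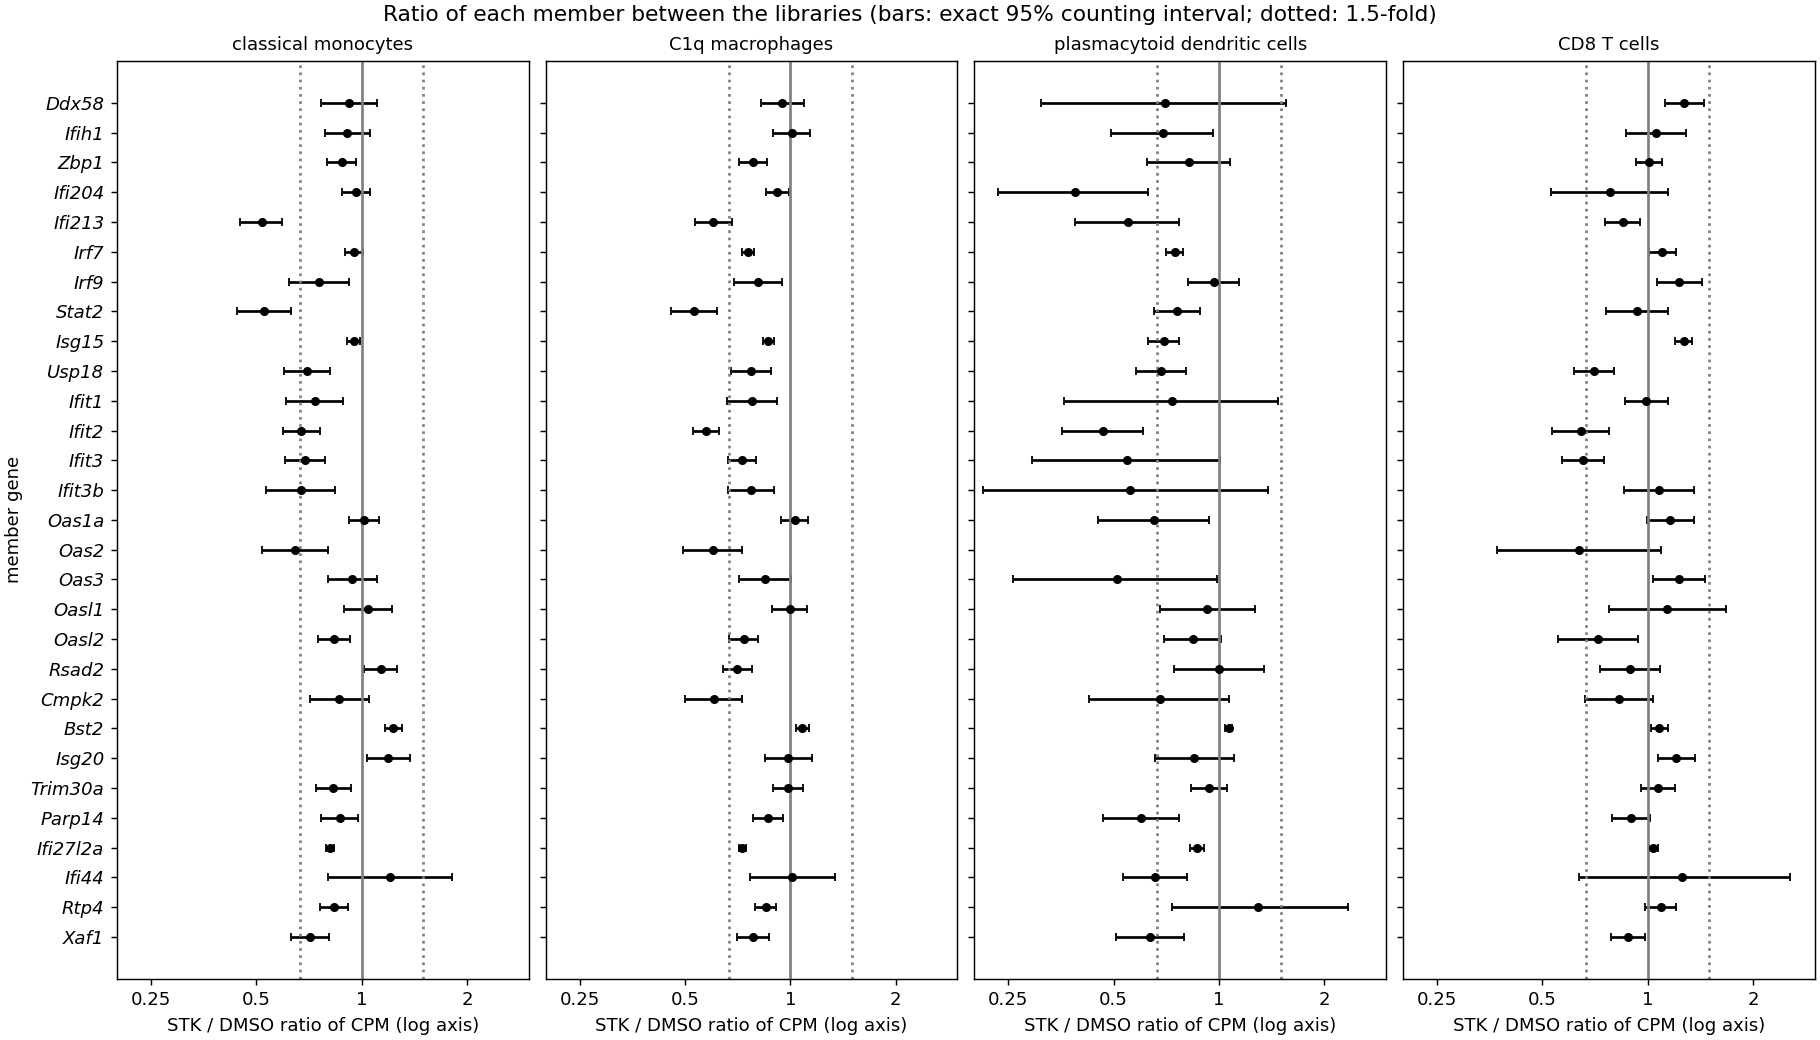
STK to DMSO ratio of CPM (x axis, log scale) for each of the 29 members (y axis, ordered by role) in 4 types, with exact 95% counting intervals and dotted lines at a fold of 1.5 either way. Most points lie left of 1 in classical monocytes, C1q macrophages and plasmacytoid dendritic cells, where 23 of 29, 25 of 29 and 25 of 28 measured members were below equal, whereas 16 of 29 lie right of 1 in CD8 T cells. Of all genes, 49.6%, 55.2%, 46.5% and 49.7% were below equal in these 4 types, in the same order.

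In classical monocytes the members furthest from equal were Ifi213 (199 and 103 CPM), 1.93 times lower in STK with a ratio of 0.518 (0.451 to 0.594), and Stat2 (121 and 63.8 CPM), 1.90 times lower with a ratio of 0.527 (0.441 to 0.628). Oas2 followed at 0.646 and Ifit3b at 0.672. Bst2 (670 and 826 CPM) was higher in STK at 1.23 (1.16 to 1.31), as were Isg20 at 1.19 (1.03 to 1.37) and Rsad2 at 1.13 (1.02 to 1.26). Isg15 and Irf7 were close to equal, both at a ratio of 0.950. The count of 3 lower members was 7 with 1 more marker in each gate, with 2 higher. Within female cells (45 in DMSO and 197 in STK) it was 1, with 13 higher, and within male cells 8, with 2 higher. The share of all genes past the fold within a sex was not computed, so these counts have no background.

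In C1q macrophages, tumour macrophages rich in complement C1q, 5 of 29 members were at least 1.5 times lower and 0 higher, against 9.33% and 5.63% of all genes. The median log2 ratio was -0.35, against -0.04 for all genes. Stat2 (80.3 and 42.7 CPM) was 1.88 times lower, Ifit2 (226 and 130 CPM) 1.74 times, Oas2 (46.5 and 27.9 CPM) 1.67 times and Ifi213 (112 and 67.7 CPM) 1.66 times. Cmpk2 completed the 5 at a ratio of 0.604. Oas1a, Ifih1 and Oasl1 were within a few percent of equal at 1.03, 1.01 and 0.996. Within male cells 2 members were lower and 1 higher, and within female cells 6 lower and 0 higher, without an all-gene share beside them.

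Neutrophils had 6 of 27 measured members at least 1.5 times lower in STK and 0 higher, against 12.6% and 12.2% of all genes. Parp14 (125 and 52.9 CPM) was 2.37 times lower, Ifi204 (179 and 80.5 CPM) 2.23 times, Ifi27l2a (2739 and 1662 CPM) 1.65 times and Irf7 (408 and 262 CPM) 1.56 times. In male neutrophils Irf7 was instead higher in STK, at a ratio of 1.14. There 4 of 15 measured members were lower and 3 higher, again without an all-gene share. The classical monocyte markers, which include Chil3 at 756 and 1800.0 CPM, made up 0.119% and 0.229% of UMIs in the gate. Depth was low here, with medians of 1302 and 1330 UMIs per cell, and the interval for Ifit2 at 0.608 reached from 0.352 to 1.03.

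Plasmacytoid dendritic cells had 10 of 28 measured members at least 1.5 times lower and 0 higher, against 6.46% and 10% of all genes, with a median log2 ratio of -0.52 against 0.03. By sex, the counts were 7 of 21 lower and 0 higher in female cells and 2 of 24 lower and 2 higher in male cells. No all-gene share was computed for these counts by sex. Ifi204 (22.6 and 8.76 CPM) was 2.58 times lower, Ifit2 (64.3 and 30.0 CPM) 2.14 times, Ifi213 (36.2 and 19.9 CPM) 1.82 times and Parp14 (61.9 and 37.0 CPM) 1.67 times. Irf7 was at a ratio of 0.746 (0.706 to 0.790) and Isg15 at 0.695 (0.629 to 0.768). The most abundant member, Bst2, was slightly higher at 1.07 (1.04 to 1.09) and dominated the summed level, whose ratio was 0.945 with all members and 0.712 without Bst2, Irf7, Isg20, Stat2, Ifi27l2a and Trim30a.

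CD8 T cells differed in sign within the set. Ifit2 (40.6 and 26.1 CPM) was 1.55 times lower, Ifit3 (72.0 and 47.0 CPM) 1.53 times, Usp18 1.42 times and Oasl2 1.39 times. Isg15 (300 and 381 CPM) was higher at 1.27 (1.20 to 1.34), as were Ddx58 at 1.27 (1.12 to 1.45) and Irf9 at 1.23 (1.06 to 1.43). In all, 3 of 29 members were at least 1.5 times lower and 0 higher, against 6.61% and 7.03% of all genes, with a median log2 ratio of 0.06.

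In regulatory T cells 5 of 28 measured members were at least 1.5 times lower and 0 higher, against 10.7% and 7.16% of all genes. The count of lower members was 1 of 27 with the cells of highest doublet score removed, 13 of 16 in female cells and 3 of 26, with 3 higher, in male cells. No all-gene share goes beside these counts, and the female cells were 16 in DMSO and 83 in STK. Ifit2 (40.8 and 15.8 CPM) was 2.58 times lower, Ifit3b 1.87 times, Ifi213 1.61 times and Zbp1 (185 and 128 CPM) 1.44 times. In male regulatory T cells Ifi213 was instead higher, at 1.16. The migratory dendritic cell markers made up 0.00749% and 0.0227% of UMIs in this gate. NK and ILC1 cells had 10 of 28 lower and 0 higher, against 8.75% and 5.56%, although their summed member UMIs were higher in STK within each sex (below). There, Ifit3 (17.9 and 7.16 CPM) was 2.49 times lower, Rsad2 2.23 times, Ifit2 2.18 times and Oas3 1.86 times, whereas Isg15 (166 and 227 CPM) was higher at 1.36 (1.24 to 1.49). In conventional CD4 T cells 2 of 28 were lower (Ifi213 and Xaf1, at 0.585 and 0.633) and 2 higher (Ifi44 and Ifi204), against 11.5% and 8.8%. Rsad2 was higher there at 1.44 (1.01 to 2.05), and Stat2 was at 0.728 (0.497 to 1.06). Other T cells had 3 of 29 lower (Ifit3b, Ifit3 and Ifit1, at 0.542, 0.572 and 0.633) and 1 higher, against 9.03% and 6.94%. Their summed member UMIs, too, were higher in STK within each sex.

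Dendritic subsets differed from one another. The type 2 gate held fewer classical monocyte marker UMIs in STK (above) and Hbb-bs, a haemoglobin gene, at 576 and 0 CPM. In these cells 6 of 29 members were at least 1.5 times lower and 0 higher, against 14.6% and 7.68% of all genes. Below equal were 28 of 29 members and 56.8% of all genes, with Cmpk2 (44.9 and 16.1 CPM) 2.79 times lower and Ifi213 (76.6 and 36.7 CPM) 2.08 times. Mature migratory dendritic cells had 1 lower and 6 higher, against 12.2% and 8.86%. Ifih1 (46.0 and 105 CPM) was higher there at 2.28 (1.63 to 3.22), Ifit1 at 1.75 (1.10 to 2.84), Ifit2 at 1.69 (1.14 to 2.53) and Isg15 (717 and 1148 CPM) at 1.60 (1.47 to 1.75), while Stat2 was 2.16 times lower. The type 2 dendritic cell markers made up 0.0235% and 0.0472% of UMIs in that gate and the classical monocyte markers 0.0181% and 0.00862%. Type 1 dendritic cells had 5 lower and 4 higher, against 8.49% and 10%. Ifit2 was 2.02 times lower there, Irf9 1.80 times and Ifi213 1.74 times, and Isg20 was higher at 1.69 (1.26 to 2.29). In the type 1 gate the C1q genes together made up 0.0677% of UMIs in DMSO and 0.130% in STK, with C1qa at 212 and 436 CPM, and the Kupffer cell gene Clec4f stood at 0 and 23.0 CPM and Ly6c2 at 47.9 and 169 CPM. The part of these other cell types' markers in the dendritic cell differences was not tested.

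The last gates had few member UMIs or mixed identity. The non-classical gate had 2 of 29 lower (Ifi213 at 0.623 and Ifit3 at 0.652) and 0 higher, against 13.1% and 6.46%, with 5 lower under 1 more marker in each gate. Within female cells 1 was lower and 4 higher, with Ifit3 at 1.11, and within male cells 5 lower and 2 higher. The counts by sex have no all-gene share beside them. Bst2 was higher at 1.38 (1.28 to 1.49). B cells had 5 of 14 measured members lower and 0 higher, against 11% and 15.2%, with Isg15 (164 and 54.4 CPM) 3.01 times lower. Hepatocyte or tumour cells had 9 of 25 lower and 0 higher, against 4.99% and 5.5%, at very low levels. Ifit3 stood at 3.55 and 0.683 CPM there, 5.20 times lower.

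Read by gene across the 15 types, 23 members were lower in STK in most of the types where they were measured and 5 were higher in most. The same tally is not given for all genes. Within single types the share of all genes below equal ran from 45.4% in B cells to 57.1% in the non-classical gate. Stat2 was lower in 15 of 15 types, all cells of a type pooled over the sexes, with an interval below 1 in 9 of them. Ifi213 was lower in 12 of 13, in each of the 12 with the interval, and Ifit2 in 13 of 14. Parp14 and Xaf1 were lower in 14 of 15 and Ifi27l2a in 13 of 15. The opposite direction was most frequent for Bst2, higher in 12 of 15 with the interval above 1 in 9, and for Oas1a, higher in 10 of 14 with it above 1 in 1. Isg15 was divided, lower in 8 of 15 types and higher in 7, with the higher ones in CD8, CD4 and other T cells, NK and ILC1 cells, migratory and type 1 dendritic cells and the non-classical gate.

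The sexes are set out next because female cells made up most of the STK cells that could be sexed. Within each library male cells were more often interferon-high, in 10 of 10 DMSO types and in 12 of 13 STK types with at least 20 cells of each sex. The exception, hepatocyte or tumour cells, had none in either sex. The interval of the male to female ratio lay above 1 in CD8 T cells in both libraries and in STK plasmacytoid dendritic cells. Over all gated cells it was 10.7% of female and 20.1% of male cells in DMSO, and 13.01% and 18.8% in STK. The share of all DMSO gated cells, 20.5%, lay above both, so cells without a sex call differed from the sexed ones. These pooled shares mix types in unequal parts. Hepatocyte or tumour cells, rarely interferon-high, were 238 of 795 female and 484 of 3389 male thinned cells in DMSO. In STK they were 431 of 3589 and 61 of 1255. Each sex stands for its own unknown number of animals, so sex and animal cannot be told apart, and cells that could not be sexed are outside these values.

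**Figure D5:**
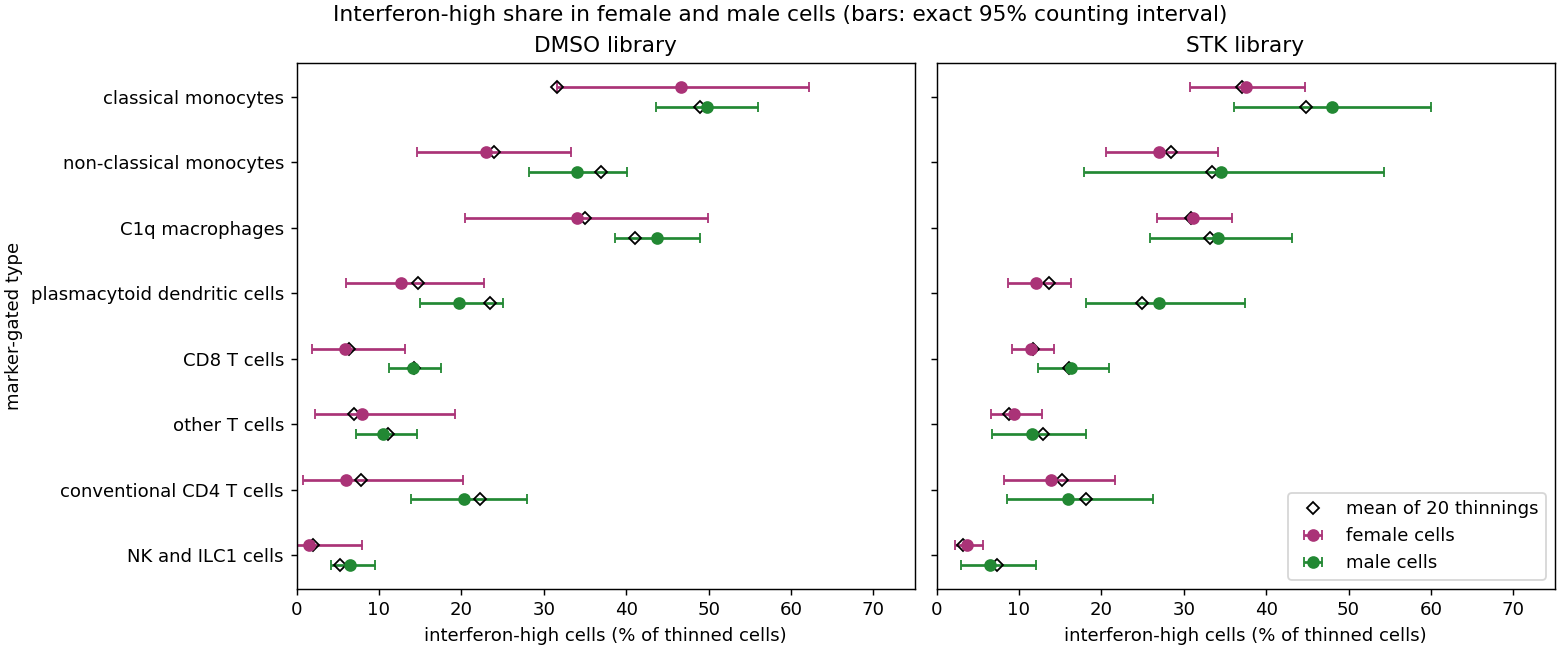
Share of interferon-high cells (x axis, percent of thinned cells) in female and male cells of 8 types (y axis) in each library, with exact 95% counting intervals from 1 thinning and open diamonds for the mean of 20 thinnings. Male cells lie to the right of female cells in all 8 types of both libraries. The single draw of DMSO female classical monocytes (45 cells) gave 46.7%, and the mean of 20 gave 31.6%.

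Within a sex the direction of the STK to DMSO difference varied with type. Over all gated cells the STK to DMSO ratio of the interferon-high share was 1.22 (0.979 to 1.51) for female cells, 0.937 (0.820 to 1.07) for male cells and 0.808 for all gated cells. The unequal part of hepatocyte or tumour cells (above) enters these ratios, and its effect was not tested. In classical monocytes the share was 49.8% and 47.9% in male cells, a ratio of 0.963 (0.736 to 1.26). Female classical monocytes gave 46.7% and 37.6% in the single draw, and 31.6% and 37.1% as means of 20 thinnings, so their direction depended on the draw. C1q macrophages were lower in STK within both sexes, at 34.1% and 31.1% in female cells and 43.7% and 34.1% in male cells, with ratios of 0.914 (0.591 to 1.41) and 0.781 (0.597 to 1.02). CD8 T cells were higher in STK within both, at 5.88% and 11.5% in female and 14.2% and 16.3% in male cells, with ratios of 1.95 (0.813 to 4.70) and 1.15 (0.825 to 1.60). In classical monocytes and C1q macrophages the interval lay below 1 for all cells, and each interval within a sex held 1.

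Summed member UMIs were lower in STK macrophages of both sexes. The STK to DMSO ratio in C1q macrophages was 0.778 (0.744 to 0.814) for female and 0.873 (0.851 to 0.896) for male cells. In classical monocytes the female ratio was 1.20 (1.14 to 1.26) and the male ratio 0.907 (0.877 to 0.937). In CD8 T cells it was 1.52 (1.41 to 1.63) and 1.17 (1.13 to 1.21). The female ratio in regulatory T cells was 0.540 (0.481 to 0.608) and the male ratio 1.06 (1.01 to 1.11), from 16 and 83 female and 151 and 61 male cells. Plasmacytoid dendritic cells were close to equal in both, at 1.07 and 0.993. NK and ILC1 cells gave 1.47 (1.32 to 1.65) for female and 1.36 (1.27 to 1.46) for male cells, against 0.941 for all of them. For other T cells the ratios were 1.24 (1.13 to 1.37) and 1.11 (1.06 to 1.17), against 0.877. In these 2 types the ratio for all cells thus lay on the other side of 1 from both sexes.

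In classical monocytes and C1q macrophages the ratios of Ifi213 and Stat2 lay below 1, and those of Bst2 above 1, within each sex, not all with the interval. Ifi213 was at a ratio of 0.67 in female and 0.51 in male classical monocytes, and at 0.43 and 0.79 in C1q macrophages. Stat2 was at 0.83 and 0.59 in classical monocytes and at 0.34 and 0.79 in C1q macrophages. Bst2 was at 1.54 and 1.51 in classical monocytes and at 1.08 and 1.21 in C1q macrophages. The interval held 1 for Stat2 in female classical monocytes (0.49 to 1.47, from 18 DMSO UMIs) and male C1q macrophages (0.59 to 1.03). It also held 1 for Bst2 in female C1q macrophages (0.93 to 1.27), and for Ifi213 in male C1q macrophages it reached 0.9998. CD8 T cells did not share the direction of Ifi213 (0.98 in female and 1.06 in male cells) and Stat2 (0.96 and 1.15). The intervals of both genes held 1 in each sex there. Bst2 was at 1.38 in female and 1.07 in male CD8 T cells. The Ifit genes were divided in classical monocytes. Ifit1, Ifit2, Ifit3 and Ifit3b stood at 2.08, 1.84, 1.77 and 1.61 in female cells, from 6 to 17 DMSO UMIs each, and at 0.50, 0.65, 0.48 and 0.41 in male cells.

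The rest of the pathway was read from lists named for it. Interferon genes themselves were almost undetected. Of 20 ligand genes, 1 was measured over all gated cells, the interferon-gamma gene Ifng, and Ifnb1 had 3 UMIs in DMSO and 11 in STK. The 3 DMSO UMIs of Ifnb1 were in C1q macrophages. Of the STK Ifnb1 UMIs, 8 were in type 1 dendritic cells and 3 in plasmacytoid dendritic cells. Ifng was lower in STK CD8 T cells, at 101 and 66.5 CPM with a ratio of 0.655 (0.582 to 0.737), and in NK and ILC1 cells, at 228 and 167 CPM.

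Receptor and kinase genes were near equal in monocytes and macrophages. In both types 0 of 9 measured were past a fold of 1.5, with median log2 ratios of -0.01 and -0.02. Of all genes, 8.85% were lower and 9.26% higher in classical monocytes, and 9.33% and 5.63% in C1q macrophages. Within CD8 T cells 2 of 9 were higher and 0 lower, against 7.03% and 6.61% of all genes. The higher ones were Jak2 at 1.71 and the interferon-gamma receptor gene Ifngr1 (535 and 823 CPM) at 1.54. Among sensors and upstream factors, 2 of 14 were lower and 1 higher in classical monocytes, against 8.85% and 9.26% of all genes. Ticam1, an adaptor of Toll-like receptor signalling, was 1.85 times lower there, and Ikbke was higher at 1.63 (1.19 to 2.24). C1q macrophages had 2 of 15 lower and 0 higher (9.33% and 5.63%), and plasmacytoid dendritic cells 2 of 13 and 1 (6.46% and 10%). Mavs, the adaptor of RIG-I and MDA5, was 1.68 times lower in C1q macrophages and 1.94 times in plasmacytoid dendritic cells. The inhibitor Socs1 (65.2 and 28.2 CPM in classical monocytes) was 2.31 times lower there and 1.90 times lower in C1q macrophages, but higher in plasmacytoid dendritic cells at 1.70 (1.04 to 2.83).

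Other interferon-stimulated genes, outside the members, were read beside the all-gene shares past the same fold. In plasmacytoid dendritic cells 13 of 43 were lower and 3 higher (6.46% and 10% of all genes), with a median log2 ratio of -0.35 against 0.03 for all genes. Regulatory T cells had 13 of 45 lower and 2 higher (10.7% and 7.16%), with -0.38 against -0.06. NK and ILC1 cells had 9 of 44 lower and 1 higher (8.75% and 5.56%), and neutrophils 7 of 29 and 1 (12.6% and 12.2%). Hepatocyte or tumour cells had 7 of 39 lower and 3 higher (4.99% and 5.5%). Mature migratory dendritic cells went the other way, with 0 of 42 lower and 5 higher (12.2% and 8.86%). In classical monocytes, C1q macrophages and CD8 T cells the counts of lower genes were near the all-gene share. The remaining types are not described here. The lower counts near that share were 5 of 44 in classical monocytes (8.85%), 3 of 45 in C1q macrophages (9.33%) and 4 of 45 in CD8 T cells (6.61%), with 1, 0 and 3 higher. The medians in these 3 types were -0.14 against 0.00, -0.18 against -0.04 and -0.06 against 0.00. Ifi206 was 1.93 times lower in classical monocytes and Phf11d 2.67 times in plasmacytoid dendritic cells, where Cxcl10 (44.4 and 110 CPM) was higher at 2.49. In regulatory T cells Ifi211 (42.4 and 15.8 CPM) was 2.69 times lower and Slfn8 2.24 times. In CD8 T cells Ifitm1, a membrane protein gene of the interferon-induced IFITM family, had 12 UMIs in DMSO and 200 in STK, a ratio of 12.5 (7.02 to 24.7). Genes preferring interferon-gamma had a median log2 ratio of -0.43 in C1q macrophages, against -0.04 for all genes. Of these, 9 of 23 were lower and 0 higher (9.33% and 5.63% of all genes), including the GTPase genes Gbp4 at 1.95 times and Iigp1 at 1.93 times lower. Their summed UMIs were nonetheless a higher part in STK, at 80133 of 5316537 UMIs in DMSO and 130432 of 6916596 in STK. Other types differed. Classical monocytes had 6 of 23 lower and 4 higher (8.85% and 9.26% of all genes). The non-classical gate had 2 of 22 lower and 5 higher (13.1% and 6.46%), with H2-Aa at 2.31 and H2-Ab1 at 2.13.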

How the data were processed

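The deposited values are raw UMI counts, 1 matrix per library, written by Cell Ranger 6.0.2 per the file headers, on GRCm38 (mm10) per the submitters' processing notes. The annotation release is not given in the sources used here. Gene positions are from GENCODE vM21 on GRCm38 and promoters from RefSeq on GRCm38.p6.

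Barcodes below 500 UMIs or 250 genes, or above 10% mitochondrial UMIs, were dropped. Types were gated on marker UMIs and no clustering was done. Among the gates, C1q macrophages needed at least 2 C1q genes at 0.1% of UMIs or more, neutrophils also 0.5% of UMIs in S100a8 and S100a9, and hepatocyte or tumour cells 0.5% in their markers. Kupffer-gated macrophages (13 and 55 cells) were not compared. Doublets were treated by leaving out cells that met gates of several lineages. Scrublet (scanpy 1.11.5) found no usable threshold in the STK library, so the 908 and 880 cells with the highest scores, at an expected rate of 8%, were removed as an alternative.

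Cells were thinned without replacement to 1000 UMIs, which 196 DMSO and 157 STK gated cells did not reach. Shares have exact Clopper-Pearson intervals, ratios of shares log-normal counting intervals, and ratios of CPM exact conditional binomial intervals, all for counting error only. A gene was measured in a type with at least 20 UMIs over both libraries. Named members were taken from the 4 furthest from equal in each type described, among those with at least 50 UMIs in the higher library. Not all 4 are given in every type. Every member is also named at its highest type. Pathway genes outside the members are the 2 furthest from equal by the same minimum, from which those described were taken. Other members named beside them were chosen after their values were seen. In simulated classical monocyte counts the procedure recovered most of the planted folds. Those folds were larger than the limit, sat in genes well above the UMI minimum and carried counting error only. Recovery was thus largely set by the design, and it does not cover sparse genes, smaller types or variation between animals. The members, lists and rules were chosen with earlier results of these data known. Alternatives covered the score, depth, members, doublets, mitochondrial limit, gates, sex, scaling and fold. The DMSO type mix, the repeated thinnings and the narrower non-classical gate were chosen after seeing the data. Computation used Python 3.11.15, numpy 2.4.6, scipy 1.17.1 and pandas 2.3.3.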

Additional observations from a re-analysis of the deposited data

Results flagged for a closer look

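The STK to DMSO ratio of summed member UMIs lay on opposite sides of 1 in female and male cells of classical monocytes, conventional CD4 T cells and regulatory T cells. Each counting interval lay on that side. In classical monocytes it was 1.20 in female and 0.907 in male cells, and in conventional CD4 T cells 1.37 in female and 0.940 in male cells. Regulatory T cells went the other way, at 0.540 in female and 1.06 in male cells. The female values rest on 45 DMSO and 197 STK classical monocytes, on 33 and 116 CD4 T cells and on 16 and 83 regulatory T cells. The difference between the sexes was not tested, and with 1 library per group each sex compares different animals in the 2 libraries.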

How the results depend on the processing

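No paired analysis was possible because each group has 1 library, and for the same reason no replicate could be left out. Values are STK to DMSO ratios or, for members at least 1.5 times lower, counts. Counts under an alternative have no all-gene share beside them. Interferon-high share: all gated cells 0.808, with at least 3 members 0.888, without the 6 members that some leukocytes express at rest 0.751, female cells 1.22 (reversed), male cells 0.937, DMSO type mix 0.864. Classical monocytes 0.822, at least 8 members 0.693, without the 6 members 0.710, male cells 0.963. Non-classical monocytes 0.979, second draw 0.771. C1q macrophages 0.750, at least 3 members 0.862, at least 8 members 0.605, thinned to 2000 UMIs 0.864, without the 6 members 0.655, female cells 0.914. CD8 T cells 1.10, female cells 1.95. Regulatory T cells 0.763, female cells 0.482. Plasmacytoid dendritic cells 0.933, male cells 1.37. Module level: all gated cells 0.997, median-of-ratios size factors 1.03, mean of per-cell CPM 0.857, 1 more marker in each gate 1.05, female cells 1.72, male cells 1.34, DMSO type mix 0.916. Classical monocytes 0.878, doublets removed 0.893, 1 more marker 0.897, female cells 1.20 (reversed), male cells 0.907. Non-classical monocytes 0.969, per-cell mean 0.942, doublets removed 0.939, 1 more marker 0.919, female cells 1.20 (reversed), without cells having a Ly6c2 or Chil3 UMI 0.822. C1q macrophages 0.807, without the 6 members 0.819, size factors 0.827, female cells 0.778, male cells 0.873. CD8 T cells 1.04, without the 6 members 1.02, per-cell mean 1.07, female cells 1.52, male cells 1.17. Regulatory T cells 0.817, size factors 0.844, per-cell mean 0.885, doublets removed 0.879, female cells 0.540, male cells 1.06 (reversed). Plasmacytoid dendritic cells 0.945, without the 6 members 0.712, per-cell mean 0.990, doublets removed 0.969, female cells 1.07 (reversed), male cells 0.993. Neutrophils 0.784, without the 6 members 0.848, per-cell mean 0.850, female cells 0.674, male cells 0.943. Members at least 1.5 times lower: classical monocytes 3, 1 more marker 7, female cells 1, male cells 8, fold of 2 0. Non-classical monocytes 2, 1 more marker 5, female cells 1, male cells 5, fold of 2 0. C1q macrophages 5, male cells 2, fold of 2 0. CD8 T cells 3, fold of 2 0. Regulatory T cells 5, doublets removed 1, 1 more marker 8, female cells 13, male cells 3, at least 50 UMIs 3, fold of 2 2. Plasmacytoid dendritic cells 10, male cells 2, fold of 2 2. Neutrophils 6, female cells 2, fold of 2 3. Single members that reversed were Ifit3 in non-classical monocytes (1.11 in female cells), Ifi213 in regulatory T cells (1.16 in male cells), Oasl1 in regulatory T cells (1.06 with doublets removed) and Irf7 in neutrophils (1.14 in male cells). The cause of these changes was not tested, and the values within a sex over all gated cells carry unequal type mixes. Leaving aside the sexes, the interferon-high ratio of C1q macrophages stayed between 0.605 and 0.864 and that of classical monocytes between 0.693 and 0.908 over the alternatives run, while plasmacytoid dendritic cells ranged from 0.746 to 1.16, the non-classical gate from 0.771 to 1.12 and neutrophils from 0.783 to 1.00. The neutrophil difference was not seen at 8 members or more, with shares of 18.5% and 18.6%. CD8 T cells ranged from 1.00 to 1.15. At 1000 UMIs a single member was often not seen in a cell that held it, and neutrophils and female DMSO cells were few or shallow.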
